A study of Mus musculus with 6 samples.

Results

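The Bcl2 family decides whether a cell under stress opens its mitochondria and dies. It was examined here as 10 genes taken by name from the 53657 gene names counted in every sample: the anti-apoptotic *Bcl2*, *Bcl2l1* (Bcl-xL), *Bcl2l2* (Bcl-w) and *Mcl1*, the effectors *Bax* and *Bak1*, and the BH3-only genes *Bcl2l11* (Bim), *Bbc3* (Puma), *Bad* and *Bid*. All 10 were found, and all 10 passed the filter on low counts that kept 19656 genes.

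RNA was sequenced from undifferentiated spermatogonia, the germ cell population that holds the stem cells of the testis, sorted from 6 adult mice as MCAM-bright, tdTomato-positive cells at 3 months after tamoxifen. The 3 WT mice were littermates that carried *Gfra1-creERT2* and the tdTomato reporter but no mutant *Hras* allele. The 3 MUT mice carried the same driver and reporter and a floxed allele that, once recombined, replaces one endogenous wild type *Hras* by the G12V form, so that their genotype is heterozygous *Hras* G12V. All 6 mice received repeated tamoxifen and came from a mixed genetic background. The Cre is driven by *Gfra1*, so recombination starts in undifferentiated spermatogonia and is mosaic, and the sort selected cells by the reporter, not by the *Hras* allele itself. The study checked the mutant allele in these libraries by variant calling and took most of the sorted MUT cells to carry it. That check was not repeated here. The comparison asks whether an activated Ras protein alters the transcripts of the cell death machinery in these cells.

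The proteins of the family share short sequence blocks named BH domains. Anti-apoptotic members hold Bax and Bak in check in a groove that binds the BH3 helix of their partners, BH3-only proteins occupy that groove or act on Bax and Bak directly, and active Bax and Bak permeabilize the outer mitochondrial membrane and release cytochrome c. In the male germ line this balance sets how many spermatogonia survive, with Bax on the death side and Bcl-xL and Bcl-w on the survival side, while Ras signaling through ERK is known to lower Bim and to stabilize Mcl-1, in large part on the protein, which RNA counts do not show.

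The BH3-coding stretch is printed for the 10 members to show what the family shares. Each stretch has 45 bases of coding DNA, read 5′ to 3′ on the coding strand of a GENCODE M21 transcript of GRCm38, and the capitals mark the 6 core codons: leucine or methionine, any 3 residues, glycine, alanine or serine, and aspartate.
Bcl2: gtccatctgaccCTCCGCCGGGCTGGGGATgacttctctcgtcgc
Bcl2l1: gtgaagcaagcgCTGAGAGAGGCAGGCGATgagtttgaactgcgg
Bcl2l2: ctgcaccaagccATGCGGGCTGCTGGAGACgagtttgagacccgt
Mcl1: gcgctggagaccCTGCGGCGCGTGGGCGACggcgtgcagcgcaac
Bax: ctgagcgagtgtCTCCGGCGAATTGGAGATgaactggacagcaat
Bak1: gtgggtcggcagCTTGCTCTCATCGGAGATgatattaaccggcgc
Bcl2l11: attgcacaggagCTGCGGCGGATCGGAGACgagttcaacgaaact
Bbc3: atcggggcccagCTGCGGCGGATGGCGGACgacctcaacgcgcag
Bad: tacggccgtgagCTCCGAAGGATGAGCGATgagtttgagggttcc
Bid: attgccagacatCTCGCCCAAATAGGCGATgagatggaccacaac

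These stretches lie at chr1:106712569-106712613 (Bcl2, minus strand), chr2:152829691-152829735 (Bcl2l1, minus), chr14:54884505-54884549 (Bcl2l2, plus), chr3:95659424-95659468 (Mcl1, plus), chr7:45465991-45466035 (Bax, minus), chr17:27022525-27022569 (Bak1, minus), chr2:128147138-128147182 (Bcl2l11, plus), chr7:16313761-16313805 (Bbc3, plus), chr19:6950780-6950824 (Bad, plus) and chr6:120897283-120897327 (Bid, minus), each within 1 coding exon. The search pattern also required aspartate, glutamate or glycine in the codon after the core, and it occurred once in each of these transcripts. The residues that the pattern names were limited by the search itself. The first core residue was methionine in *Bcl2l2* and leucine in the other 9 members, and the fifth was alanine in *Bbc3*, serine in *Bad* and glycine in the other 8. Over the 18 core bases the 45 pairs of members shared between 5 bases (*Bcl2l2* and *Bid*) and 15 bases (*Bcl2l11* and *Bbc3*). Of the 5 coding transcripts of *Bcl2l11* that were read, 4 held the stretch, and of the 3 of *Bcl2l2*, 2 held it. The counts are per gene and do not separate transcripts with the stretch from those without it.

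Each sample had between 22729292 and 23550433 counted fragments, so that 3 counts corresponded to between 0.127 and 0.131 CPM (counts scaled to the TMM-normalized library size). Values of single samples are given below in the order of replicates 1, 2 and 3. *Hras* had 56.8, 60.1 and 65.2 CPM in the WT samples and 69.9, 69.1 and 61.0 CPM in the MUT samples. The groups overlapped, and the log2 fold change was 0.14 (standard error, SE, 0.083; adjusted p = 0.998 by the edgeR quasi-likelihood test, Benjamini-Hochberg over all genes), and total *Hras* counts do not distinguish the G12V transcript. WT replicate 3 stood apart: the chi-square per degree of freedom of its counts was 27.6 against WT replicate 1 and 20.5 against WT replicate 2, and 5.68 between the latter. In MUT, replicate 3 gave 11.1 and 9.75 against replicates 1 and 2, and those gave 4.67 against each other. The summed level of 10 germ cell genes, listed as markers of undifferentiated spermatogonia, was between 2859 and 3398 CPM. The list held *Zbtb16*, *Sall4* and *Gfra1*, the last at 103.5 to 147.5 CPM. It also held *Ddx4* (481 to 527.2 CPM) and *Dazl* (836.6 to 959.3 CPM), which are not specific to these cells and supply much of the sum. Markers of other cells were also counted: 8 spermatocyte and spermatid genes summed to between 929 and 1841 CPM, 5 macrophage genes to between 479 and 920 CPM and 6 Sertoli genes to between 25.1 and 36.7 CPM, with no gene of these lists at 0 in every sample. The 6 Leydig genes reached 67.3 CPM in MUT replicate 3, against 12.9 to 21.1 CPM elsewhere. Peritubular myoid genes summed to between 10.4 and 17.1 CPM and endothelial genes to between 43.8 and 58.3 CPM. B or plasma cell genes summed to between 49.9 and 131.5 CPM in WT and, overlapping, to between 25.2 and 55.3 CPM in MUT. In WT, 5 genes of differentiating spermatogonia, among them *Kit* and *Stra8*, summed to between 701 and 754 CPM. In MUT these genes summed to between 770 and 932 CPM. In sorted bulk RNA, fewer cells of a type and less RNA per cell cannot be told apart.

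The 10 transcripts spanned a wide range of levels. Per kilobase of exon (RPKM, mean of the 6 samples), *Bax* was highest at 59.4, followed by *Mcl1* at 49.0, *Bcl2l1* at 24.8 and *Bid* at 18.3. A middle group held *Bad* at 7.67, *Bcl2l2* at 5.57, *Bcl2l11* at 4.93 and *Bbc3* at 2.64 RPKM. *Bak1*, at 1.31 RPKM, and *Bcl2*, at 0.280 RPKM, were lowest. Among the levels of all genes tested, *Bax* stood at percentile 96.5, *Mcl1* at 95.2, *Bcl2l1* at 87.1 and *Bid* at 82.0, while *Bak1* stood at 30.7 and *Bcl2*, the gene that gives the family its name, at 7.88.

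Most neighbors in this order were separated in every sample. The ranges over the 6 samples overlapped for *Bax* and *Mcl1*, where *Bax* was nevertheless higher in each of the 6 samples (ratio of mean RPKM 1.21), and for *Bcl2l2* and *Bcl2l11*, where *Bcl2l2* was higher in 5 of 6 (ratio 1.13). The other 7 neighboring pairs did not overlap. Genes of the same role stood at uneven levels. The RPKM of *Mcl1* was between 145 and 230 times that of *Bcl2*, and the RPKM of *Bax* was between 41.0 and 48.9 times that of *Bak1*. Mcl-1 and Bcl-xL are both anti-apoptotic, and the RPKM of *Mcl1* was between 1.68 and 2.35 times that of *Bcl2l1*. Among BH3-only genes, *Bid*, whose protein is cut by caspase-8 to link death receptors to mitochondria, was between 6.40 and 7.61 times as high per length as *Bbc3*, a p53 target. These levels divide by the union of all annotated exons, including bases shared with other genes, whose fragments were not counted. Levels per length can therefore be too low for members that share exon bases. With the length of the longest coding transcript instead, an alternative added after the data were seen, *Bcl2l2* and *Bcl2l11* changed places *Bax* over *Bak1* was between 58.3 and 69.4, and *Mcl1* over *Bcl2l1* was between 0.941, in MUT replicate 1, and 1.32.

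**Figure D1:**
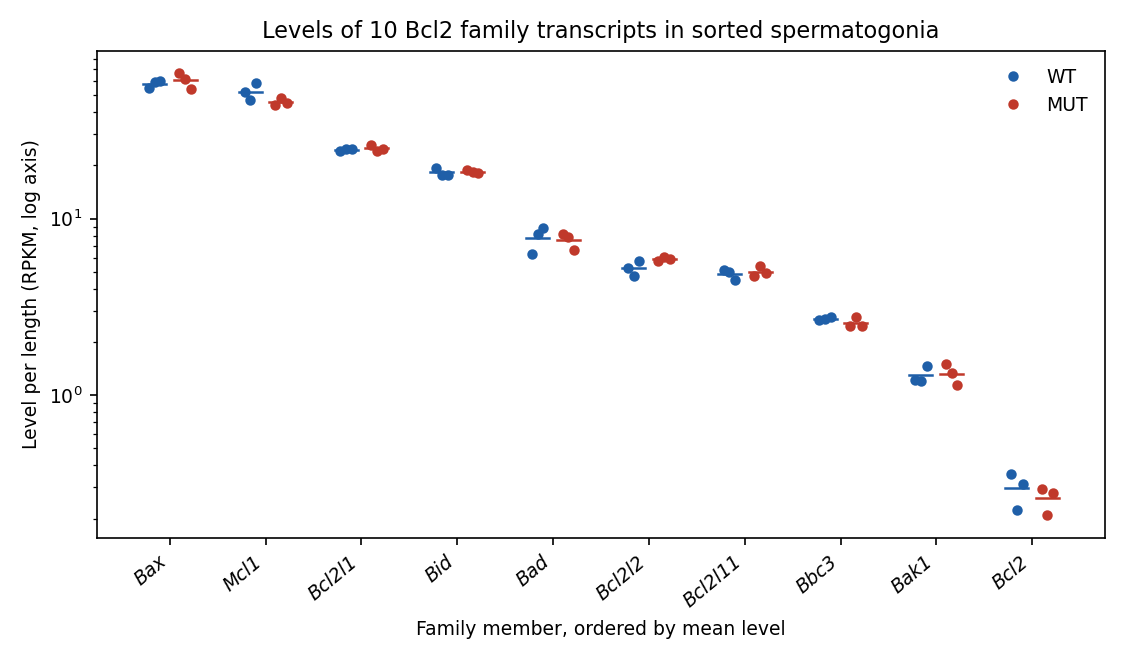
Level per length (RPKM, log axis) of the 10 family transcripts in each of the 6 samples, ordered by mean level; points are samples, short lines are group means, WT in blue and MUT in red. *Bax* and *Mcl1* lead at 59.4 and 49.0 RPKM, *Bcl2* is lowest at 0.280 RPKM, and for each gene the MUT points lie beside the WT points.

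None of the 10 transcripts passed the test between genotypes. By the edgeR quasi-likelihood test at an FDR of 0.1, adjusted over all genes, 0 of 10 members were called, beside 2 of all 19656 genes (0.0102%). At an unadjusted p under 0.05 the members again gave 0 of 10, beside 547 of all genes (2.78%). With the replicate number as a block edgeR called 0 of 10 members and 13 genes in all (0.0661%), DESeq2 called 0 of 10 members and 9 of 37271 genes (0.0241%), and DESeq2 with the block called 0 of 10 members and 55 of 17045 genes (0.323%). These fits, and limma voom, left 0 members at an unadjusted p under 0.05.

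The data bounded how large a difference could be. The 95% interval of the fold change lay within 1.5-fold in either direction for 9 of 10 members, all but *Bcl2*, and within 2-fold for all 10. For all genes tested the share with an interval within 1.5-fold was 59.1%. The log2 fold changes (MUT minus WT) of the members ran from −0.20 to 0.18, with 6 above 0 and 4 below, and their median was 0.021, beside a median of 0.0066 over all genes tested. In size, without sign, the median was 0.056 for the members and 0.096 for all genes. Interval width and the size of a fold change both depend on how many counts a gene has. The members and all genes were not matched for level, so these comparisons do not set the family apart.

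**Figure D2:**
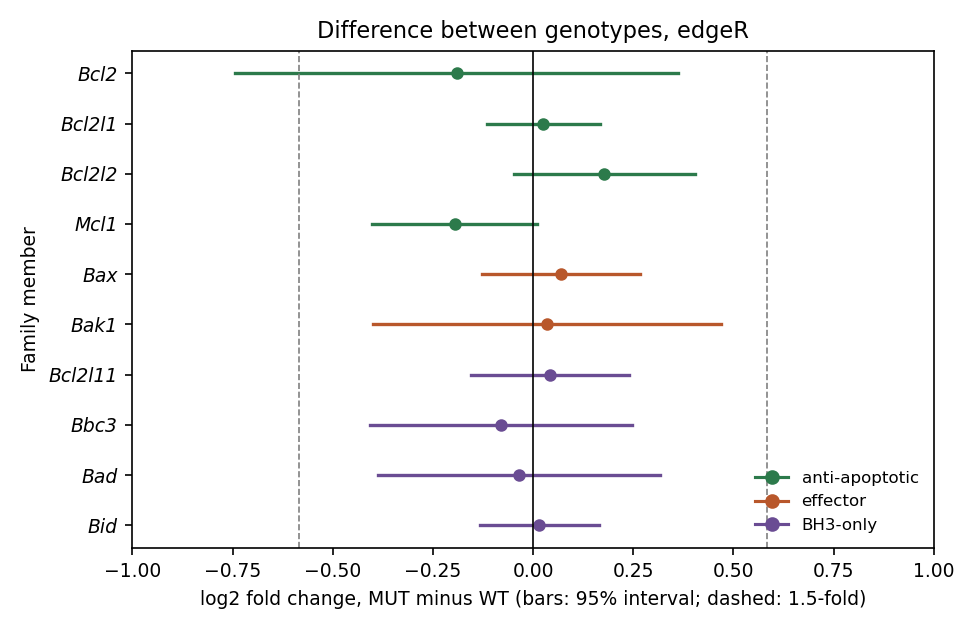
log2 fold change (MUT minus WT, edgeR) of each member with its 95% interval, colored by role; dashed lines mark 1.5-fold. All 10 intervals cross 0, *Mcl1* only narrowly at 0.010, and the interval of *Bcl2* alone passes a dashed line, at −0.74.

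*Mcl1* and *Bcl2l2*, both anti-apoptotic, had the smallest unadjusted p of the 10, with fold changes of opposite sign, and neither passed the test. *Mcl1* (chr3:95658788-95663176, plus strand), a survival factor with a short-lived protein, had 177, 160 and 199 CPM in the WT samples and 150, 164 and 154 CPM in the MUT samples. MUT replicate 2 lay above WT replicate 2, so the groups overlapped, and the highest sample was WT replicate 3. The means were 179 ± 19.9 CPM in WT and 156 ± 6.997 CPM in MUT (SD, n = 3). The log2 fold change was −0.20 (SE 0.090, 95% interval −0.40 to 0.010), with an unadjusted edgeR p of 0.0602 and an adjusted p of 0.998. It was −0.11 without WT replicate 3 and −0.28, with an unadjusted edgeR p of 0.0152 and an adjusted p of 0.998, without WT replicate 2, where 3.24% of all genes had an unadjusted p under 0.05. WT replicate 3 also had the highest macrophage marker sum, 920 CPM against 479 to 614 CPM in the other 5 samples. This sample differed in other ways too. It had the highest spermatocyte and spermatid sum (1841 CPM) and B or plasma cell sum (131.5 CPM). Its sum for undifferentiated spermatogonia (2859 CPM) was the lowest. The part of any of these in the *Mcl1* value was not tested.

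*Bcl2l2* (chr14:54883377-54888234, plus strand), which encodes Bcl-w, a survival protein needed for spermatogenesis in the mouse, had 23.3, 21.03 and 25.6118 CPM in the WT samples and 25.6123, 27.1 and 26.4 CPM in the MUT samples. It was the only member whose groups did not overlap, and the gap between WT replicate 3 and MUT replicate 1 was in the fourth decimal. Members with MUT higher in this sense numbered 1 of 10, beside 4.69% of all genes, and members with MUT lower 0 of 10, beside 3.00%. The means were 23.3 ± 2.29 CPM in WT and 26.4 ± 0.768 CPM in MUT (SD, n = 3). Its log2 fold change was 0.18 (SE 0.099, 95% interval −0.049 to 0.40, edgeR adjusted p = 0.998). The exact two-sided permutation test over the 20 assignments of samples gave p = 0.1, the smallest that 3 samples against 3 allow. Without WT replicate 2 the log2 fold change was 0.096, and without WT replicate 3 it was 0.25, with an unadjusted edgeR p of 0.0304 and an adjusted p of 0.999, beside 3.63% of all genes under 0.05.

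*Bcl2l1* (chr2:152780668-152831728, minus strand), which encodes Bcl-xL, had the smallest fold change of the anti-apoptotic genes. It had 110, 114 and 114 CPM in the WT samples and 120, 111 and 113 CPM in the MUT samples. MUT replicate 1 was highest and the groups overlapped. The log2 fold change was 0.026 (SE 0.062, edgeR adjusted p = 0.998), and its 95% interval, −0.12 to 0.17, was the narrowest of the 10. *Bcl2* itself (chr1:106538178-106714274, minus strand) was counted on 75, 48 and 68 fragments in the WT samples and on 62, 44 and 60 in the MUT samples, or between 1.91 and 3.28 CPM. Replicate 2 was lowest in both genotypes. The log2 fold change was −0.19 with an interval of −0.74 to 0.36 (adjusted p = 0.998, edgeR), so that a fall of 1.5-fold lay inside the interval at this depth, where counting alone gives a coefficient of variation of 13.0%. *Bcl2* was −0.05 without WT replicate 1 and −0.37 without WT replicate 2 on the same log2 scale.

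The effectors *Bax* and *Bak1*, whose proteins form the pore, both had log2 fold changes under 0.1 in size. *Bax* (chr7:45461697-45466898, minus strand) had 87.0, 92.99 and 94.2 CPM in the WT samples and 105, 97.1 and 85.3 CPM in the MUT samples. MUT supplied both the highest and the lowest sample. The log2 fold change of *Bax* was 0.069 (SE 0.087, 95% interval −0.13 to 0.27, edgeR adjusted p = 0.998), and it was 0.15 without MUT replicate 3 and −0.010 without MUT replicate 1. *Bak1* (chr17:27019810-27029009, minus strand) was counted on 67, 68 and 83 fragments in the WT samples and on 83, 74 and 64 in the MUT samples. The 2 groups covered nearly the same range, with a log2 fold change of 0.035 (SE 0.19, 95% interval −0.40 to 0.47, edgeR adjusted p = 0.998). Of the exon bases of *Bak1*, 14.8% are shared with *Ggnbp1* on the opposite strand, which had between 377 and 950 counts, and fragments that overlapped both genes were left out by the authors' counting.

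The BH3-only genes are the sensors of the family. *Bcl2l11* (chr2:128126038-128162547, plus strand), which encodes Bim, a potent activator of Bax and Bak, had 40.9, 40.1 and 36.0 CPM in the WT samples and 37.9, 43.1 and 39.6 CPM in the MUT samples. The samples were interleaved, and the log2 fold change was 0.043 (SE 0.086, 95% interval −0.15 to 0.24, edgeR adjusted p = 0.998). *Bbc3* (chr7:16308393-16318205, plus strand), which encodes Puma, had 5.68, 5.73 and 5.87 CPM in the WT samples and 5.24, 5.90 and 5.21 CPM in the MUT samples. A pair of MUT samples lay below all WT samples and the third lay above them. Its log2 fold change was −0.079 (SE 0.14, 95% interval −0.41 to 0.25, edgeR adjusted p = 0.998).

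*Bad* (chr19:6941861-6951898, plus strand), whose protein is inactivated by phosphorylation under growth factor signaling, had 12.6, 16.4 and 17.8 CPM in the WT samples and 16.5, 15.8 and 13.3 CPM in the MUT samples. WT held both the highest and the lowest sample, a coefficient of variation of 17.2%, where counting alone gives 5.29%. The log2 fold change of *Bad* was −0.035 (SE 0.15, 95% interval −0.39 to 0.32, edgeR adjusted p = 0.998), −0.18 without WT replicate 1 and 0.069 without WT replicate 3. *Bid* (chr6:120891930-120916853, minus strand) had 68.5, 63.0 and 62.8 CPM in the WT samples and 66.7, 65.1 and 64.6 CPM in the MUT samples. All MUT samples fell inside the WT range, with a log2 fold change of 0.016 (SE 0.065, 95% interval −0.13 to 0.17, edgeR adjusted p = 0.998). *Bad* shares 25.8% of its exon bases with *Gpr137* and *Bid* 17.7% with *Bcl2l13*, both on the opposite strand. Smaller shares of *Bcl2l2* (13.3%), *Bax* (12.2%) and *Bcl2* (6.09%) overlap other annotated genes that had at most 6 counts in any sample. Fragments on shared bases were left out whatever the level of the other gene, so those low counts do not show that little was lost. *Bcl2l1*, *Mcl1*, *Bcl2l11* and *Bbc3* share none.

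The balance between roles was described as a share of the summed RPKM of the 10 transcripts. Anti-apoptotic members supplied 47.6%, 44.9% and 48.4% in the WT samples and 42.6%, 44.6% and 46.5% in the MUT samples. The groups overlapped, with means of 47.0% ± 1.83 in WT and 44.6% ± 1.91 in MUT (SD, n = 3), a difference of −2.39 percentage points. Effectors, nearly all of it *Bax*, supplied between 32.9% and 38.2%, and BH3-only members between 18.3% and 19.7%. The share of *Mcl1* alone was 29.8% ± 2.17 in WT and 26.5% ± 1.63 in MUT (SD, n = 3). Its difference of −3.29 percentage points was larger in size than that of the whole class. The differences were 0.471 for *Bcl2l1*, 0.452 for *Bcl2l2* and −0.018 for *Bcl2*. Without *Mcl1* in the sums the anti-apoptotic difference between genotypes was 0.139 percentage points. The RPKM of *Bax* and *Bak1* over that of the 4 anti-apoptotic genes was 0.692, 0.787 and 0.687 in the WT samples and 0.896, 0.802 and 0.728 in the MUT samples. WT replicate 2 lay above MUT replicate 3, so these ratios overlapped too. Within same-numbered pairs the ratio was higher in MUT, and the anti-apoptotic share lower, in 3 of 3. The labels do not say that a number marks a pair, and other matchings need not give this. The share was 44.9% in WT replicate 2 and 46.5% in MUT replicate 3. The summed RPKM of the family was between 163 and 184 in the 6 samples. No test was made of these sums.

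**Figure D3:**
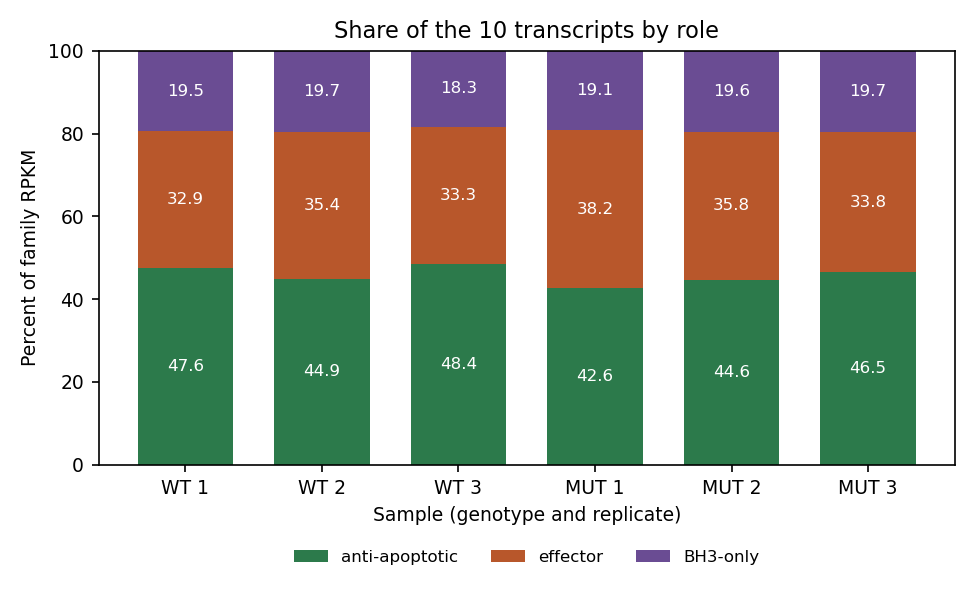
Percent of the summed RPKM of the 10 transcripts that came from anti-apoptotic, effector and BH3-only members, one stacked bar per sample. The anti-apoptotic share runs from 42.6% in MUT replicate 1 to 48.4% in WT replicate 3, the effector share from 32.9% to 38.2%, and the BH3-only share stays between 18.3% and 19.7%.

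The other genes of the pathway were read from the same fit in 9 lists with 62 genes: further family members, caspases and the apoptosome, inhibitors of apoptosis (IAP) and their antagonists, death receptors, outer membrane channels, and the kinases, binding proteins, transcription factors and ligases that act on the family. Of these, 59 passed the filter, and *Bcl2a1a*, *Bcl2l10* and *Bcl2l15* did not. edgeR called 0 of 59 at an adjusted p under 0.1 and 0 of 59 at an unadjusted p under 0.05, and DESeq2 likewise gave 0 by either rule. limma voom and edgeR with the replicate block each called 0 and each put 1 gene at an unadjusted p under 0.05: *Fasl* with voom, beside 2.96% of all genes, and *Bcl2l14* with the block, beside 6.60%. The log2 fold changes of the 59 were above 0 for 38 genes and below 0 for 21, with a median of 0.029, and groups did not overlap for 5 genes with MUT higher, beside 4.69% of all genes, and for 3 with MUT lower, beside 3.00%. The 5 include *Fasl*, which passed the filter on low counts only through its MUT samples.

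Those with the smallest unadjusted p all had an adjusted p of 0.998 in edgeR. *Fasl*, the ligand of the Fas death receptor, had only 10, 8 and 4 counts in the WT samples and 15, 11 and 15 in the MUT samples, a log2 fold change of 0.90 (SE 0.40). It passed the filter on low counts only through its MUT samples, so its higher MUT level is partly a condition of its being tested. *Bcl2a1b* is an anti-apoptotic gene with near-identical copies, and fragments that match several copies were left out by the authors' counting. It had 36, 43 and 72 counts in the WT samples and 39, 30 and 26 in the MUT samples (log2 fold change −0.65, SE 0.31). Without WT replicate 3 the log2 fold change of *Bcl2a1b* was −0.31 and that of *Fasl* 0.60. *Bcl2a1b*, like *Mcl1*, was highest in WT replicate 3. So were the macrophage, the spermatocyte and spermatid, and the B or plasma cell marker sums. The part of these cells in the *Bcl2a1b* value was not tested. *Hrk*, a BH3-only gene, had 3.63, 2.99 and 2.62 CPM in the WT samples and 4.15, 4.12 and 3.68 CPM in the MUT samples, with no overlap (log2 fold change 0.37, SE 0.19).

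*Pmaip1* (Noxa), the BH3-only partner of Mcl-1, overlapped between genotypes at a log2 fold change of −0.22 (SE 0.12), which was −0.12 without WT replicate 3 and −0.33 without MUT replicate 1. *Akt1*, a kinase that phosphorylates Bad, was between 147.6 and 158.8 CPM in WT and between 159.3 and 174.8 CPM in MUT, without overlap (log2 fold change 0.13, SE 0.068, and 0.080 without MUT replicate 2).

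*Bcl2l14* was the one gene of these lists whose unadjusted p moved under 0.05 with the replicate block. It had 28.4, 26.5 and 40.8 CPM in the WT samples and 17.4, 19.3 and 39.2 CPM in the MUT samples. The replicate 3 samples of both genotypes were high, and each MUT sample was below the WT sample of the same number. Its log2 fold change was −0.33 (SE 0.30, adjusted p = 0.998) without the block and −0.40 (SE 0.12, adjusted p = 0.419) with it, both in edgeR, and without MUT replicate 3 it was −0.80 (edgeR adjusted p = 0.208). The spermatocyte and spermatid marker sum was 1446, 1173 and 1841 CPM in the WT samples and 929, 962 and 1459 CPM in the MUT samples. *Prm1*, *Prm2*, *Tnp1* and *Tnp2*, the spermatid genes that supply most of it, went the same way. *Sycp1* did not, at 198.7, 215.6 and 255.8 CPM in WT and 227.1, 234.1 and 217.8 CPM in MUT. Nor did *Sycp3* or *Piwil1*, and *Acrv1* followed only in part. The part of spermatocytes and spermatids in the *Bcl2l14* value was not tested. *Bcl2l14* was chosen for description after its values were seen.

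Transcripts high per length within their list are given with their level in the sorted samples, and the part of other cell types in these levels was not tested. Beside *Bcl2a1b* at 2.16 RPKM and *Bcl2l12* at 17.1 RPKM, the BH3-like *Bnip3l*, a receptor for mitochondrial autophagy, had 28.5 RPKM and *Bik* 19.4 RPKM. *Casp2* had 23.4 RPKM, and *Birc6* and *Birc2*, both IAP genes, 21.4 and 19.5 RPKM. The death receptor *Tnfrsf1a* had 9.68 RPKM and the channel *Vdac2*, which binds Bak at the outer membrane, 23.2 RPKM. The 14-3-3 protein gene *Ywhae*, whose product can hold phosphorylated Bad in the cytosol, had 215 RPKM, the kinase gene *Pim1* 71.7 RPKM, *Huwe1*, a ligase that marks Mcl-1 for degradation, 84.0 RPKM, and *Foxo3*, a factor that activates *Bcl2l11*, 39.1 RPKM. *Huwe1* and *Birc6*, both with very long transcripts, were lowest in WT replicate 3, at 53.7 and 14.1 RPKM against at least 81.9 and 20.6 RPKM in the other 5 samples.

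**Figure D4:**
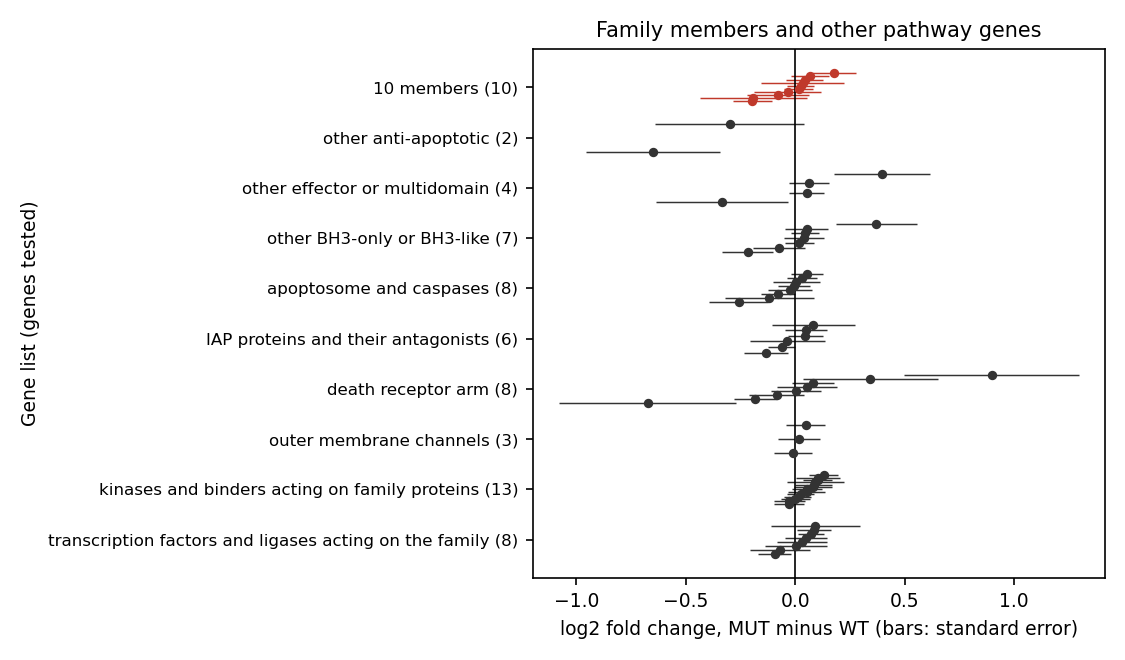
log2 fold change (MUT minus WT, edgeR) with its SE for the 10 members in red and the 59 other pathway genes tested in black, grouped by list with the number of genes tested. Most points lie close to 0, and the widest bars belong to low-count genes such as *Fasl* at 0.90 and *Fas* at −0.67.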

How the data were processed

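Polyadenylated RNA of 6 sorted samples, 3 WT and 3 MUT by their labels, was sequenced in paired 50-base reads from TruSeq Stranded mRNA libraries. The deposited values are raw fragment counts for each gene name, which the authors made with featureCounts 1.6.2 on GENCODE M17 with tdTomato added (GRCm38.p6; STAR and FastQC are named in the processing notes), with no strand, multi-mapping or overlap option, so fragments on bases shared by genes were not counted, and no normalization. Nothing says how the mice of a number are related, beyond controls being littermates.

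Counts were joined by name. edgeR 4.0.16 in R 4.3.3 applied TMM, filterByExpr and the quasi-likelihood test with genotype alone on 19656 genes, adjusted by Benjamini-Hochberg to an FDR of 0.1. The study used DESeq2, run here as an alternative (1.42.0), beside limma voom (3.58.1), other size factors, other filters, an FDR of 0.05, a replicate block and each sample left out. Exact two-sided permutation tests used CPM. RPKM divides CPM by the union of exons. Depth was 22729292 to 23550433 counts, and intervals from counting cover counting error only. The deviations of same-numbered WT and MUT samples from their group means correlated at 0.30, 0.16 and 0.40 over 10583 genes above 10 CPM, so the numbers were treated as pairing the samples in the block (WT replicate 2 and MUT replicate 1 correlated as highly, at 0.33), while the fit without it remained the main one. Scripts were tested on simulated data. BH3-coding stretches were found by a pattern search of GENCODE M21 transcripts on the same build.

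The members, the pathway and marker lists and the tests were chosen with earlier results of these data known. Genes named were all members, *Hras*, up to 6 other pathway genes with the smallest unadjusted p, the 1 or 2 highest per length in each list, and markers whose list is summed; *Bcl2l14*, *Fas*, *Ggnbp1*, *Gpr137* and *Bcl2l13* were named after their values or overlaps were seen. The values of some genes that this rule selects are not reported here.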

Additional observations from a re-analysis of the deposited data

How the results depend on the processing

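No member and none of the other pathway genes was called under any alternative run, including both fits with a replicate block (0 of 10 members in edgeR, which called 13 genes in all, and in DESeq2, which called 55), an FDR of 0.05 and each sample left out. Of 130 log2 fold changes of members under alternatives, 118 kept their sign and 12 changed it, all 12 with a sample left out and none past the threshold. The ranges over left-out samples were −0.015 to 0.038 for *Bcl2l1*, −0.010 to 0.15 for *Bax*, −0.074 to 0.14 for *Bak1*, −0.024 to 0.077 for *Bcl2l11*, −0.18 to 0.069 for *Bad* and −0.016 to 0.050 for *Bid*, so that none of these 6 has a settled direction. *Bcl2*, *Bcl2l2*, *Mcl1* and *Bbc3* kept their sign in all 13 alternatives. These alternatives use the same 6 samples or a subset of them, so a kept sign does not settle a direction either. The main edgeR interval crossed 0 for each of these genes, for example −0.41 to 0.25 for *Bbc3* and −0.40 to 0.010 for *Mcl1*. The lowest adjusted p of a member was 0.705 (*Bax* without MUT replicate 3, edgeR). Unadjusted p values under 0.05 arose for 1 member without WT replicate 2 (*Mcl1*) and for 1 without WT replicate 3 (*Bcl2l2*). Of the other pathway genes, 0 to 5 had an unadjusted p under 0.05 with 1 sample left out, the 5 without WT replicate 3, where 3.63% of all genes had one. Without MUT replicate 3 it was 3 genes, beside 8.64% of all genes. The difference in anti-apoptotic share was −2.39 percentage points and became 0.139 without *Mcl1*, which by construction removes that gene from the sums. The mean of the 3 paired differences of the replicate block is the same −2.39 by arithmetic, so it is no separate check. The difference was between −3.42 and −1.42 with 1 sample left out. The length of the longest coding transcript, added after the data were seen, gave −1.91. *Hras* and the 6 other pathway genes with the smallest p, whose alternatives were also added after the data were seen, kept their sign throughout, with *Hras* between 0.081 and 0.20. Counts per library limit *Bcl2* and *Bak1* most.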
